A study of Mus musculus with 8 samples.

Results

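The solute carrier (SLC) genes encode the membrane proteins that move amino acids, sugars, nucleosides, metals, ions and metabolites into, out of and within cells. They were taken as the rows of the deposited expression table whose mouse gene symbol starts with Slc and a digit, leaving out Slc2a1, Slc2a3, Slc16a1 and Slc16a3, the main glucose and lactate carriers. The rule used names and no measured values. It gave 201 genes of 11723 listed, from 45 numbered families. Of these, 198 are carriers or carrier-like, and 3 share the prefix only: Slc9a3r1, a membrane scaffold, Slc4a1ap, an adaptor, and Slc7a6os, a neighbour of Slc7a6.

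The libraries were made from total RNA of CD8 T cells, the cytotoxic T lymphocytes, isolated on a cell sorter. The mice were of the BALB/c strain and 12 days of age, and the tissue was peripheral lymph node. The 4 IL-2-KO libraries, from mice labelled as knockout for the T cell growth factor interleukin-2, came from 26.7, 42.6, 1.1 and 0.4 M cells, where M is 1e6. The 4 WT libraries came from 115, 28.7, 1.3 and 1.3 M cells, pooled from 5, 5, 3 and 2 mice. The series' design text calls all of them biological replicates. It adds the spleen as a source tissue and counts heterozygotes with the controls. How the knockout allele was made and how many knockout animals each library holds are not given in the sources used here. The knockout is given as the genotype of the animals, so what a change owes to CD8 T cells or to their surroundings cannot be told apart. Values are read counts set to a fixed total after TMM scaling of the library size, called CPM below, where TMM is a scaling that takes most genes as equal between libraries. They are listed for replicates 1, 2, 3 and 4 in that order.

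T cells that leave the resting state take up more nutrients. The large neutral amino acid carrier Slc7a5, paired with its heavy chain Slc3a2, and the glutamine carrier Slc1a5 are known for feeding the growth kinase complex mTORC1 in activated T cells. IL-2 acts through the factor STAT5 and through mTORC1 to keep such carriers high. The mitochondrial Slc25 family passes ADP, ATP, phosphate, citrate and amino acids across the inner membrane, Slc39 (ZIP) members bring zinc into the cytosol, Slc30 (ZnT) members take it out, and Slc28 and Slc29 members carry nucleosides.

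The recovered depth was 14.8 to 18.4 M counts in IL-2-KO libraries and 11.9 to 17.4 M in WT libraries, so 1 CPM rests on 11.9 to 18.6 counts. Cd8a stood at 1479.5 to 1870.1 CPM in IL-2-KO libraries and at 1679 to 1979 CPM in WT libraries. Of 8 CD8 T cell markers 7 were listed, and 1 passed (14.3%, beside 19.2% of all genes). It was Thy1, which was lower (log2 change -0.50, 95% interval -0.66 to -0.34, limma adjusted p = 0.00117). The summed level of the 7 was 5703 to 6648 CPM in IL-2-KO and 6650 to 7375 CPM in WT libraries, without overlap. Il2 itself had 5.13, 7.32, 8.42 and 4.25 CPM in IL-2-KO libraries, against 5.72, 5.65, 6.25 and 5.91 CPM in WT libraries, with a log2 change of 0.04 (95% interval -0.40 to 0.49, limma adjusted p = 0.907). This row did not separate the genotypes, and whether its reads lie outside the deleted part is not given. IL-2-KO replicate 3 and WT replicate 2 stood apart by myeloid and CD4 T cell genes: Lyz2, a myeloid lysozyme, had 296 CPM in IL-2-KO replicate 3 and 39.97 CPM in WT replicate 2, against at most 2.85 CPM in any other library, and Cd4 had 45.5 and 38.6 CPM against at most 2.48 CPM. Of 13 myeloid markers 6 were listed. Their summed level ranged from 43.99 to 482 CPM in IL-2-KO libraries and from 37.8 to 137 CPM in WT libraries, and 0 of the 6 passed the test (1 had an unadjusted p under 0.05). Of the 5 markers of CD4 and regulatory T cells 1 was higher, Ctla4, which activated CD8 T cells also express, with a summed level of 64.9 to 237 CPM in IL-2-KO and 14.7 to 92.3 CPM in WT libraries. None of the 3 listed B cell markers passed (0 at an unadjusted p under 0.05), and their sums overlapped at 12.3 to 36.2 CPM and 15.7 to 26.2 CPM. Of 4 NK cell genes, which effector CD8 T cells also use, 3 rose: Gzma, Eomes and Klre1, with a summed level of 321 to 588 CPM in IL-2-KO and 108 to 158 CPM in WT libraries. Their part in the results below was not tested.

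Of the 201 genes, 198 had at least 1 CPM in at least 4 of 8 libraries and were tested in a limma fit over 11530 genes, with Benjamini-Hochberg adjustment over all of them and a threshold of 0.05. The untested genes were Slc1a4, Slc9c1 and Slc22a23. A total of 41 solute carrier genes passed (20.7%), beside 19.2% of all genes tested, so the share of these genes that changed was near the background. In bulk RNA, fewer cells that express a gene and less of its RNA per cell cannot be told apart. Of the 41, 27 were higher in IL-2-KO cells, where 11.1% of all genes were called higher, and 14 were lower, where 8.03% of all genes were called lower. At an unadjusted p under 0.05 there were 72. The IL-2-KO and WT values did not overlap for 46 genes, 26 above and 20 below, beside 24.2% of all genes. The median log2 change was -0.05 over the 198 genes and -0.01 over all genes. The split of calls moved with the scaling: 65.9% of the called members were higher here, but 47.6% (20 of 42) after quantile normalization and 40% (22 of 55) after a correction for GC content and transcript length. For all genes the same shares were 58.1%, 48.9% and 39.8%.

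**Figure D1:**
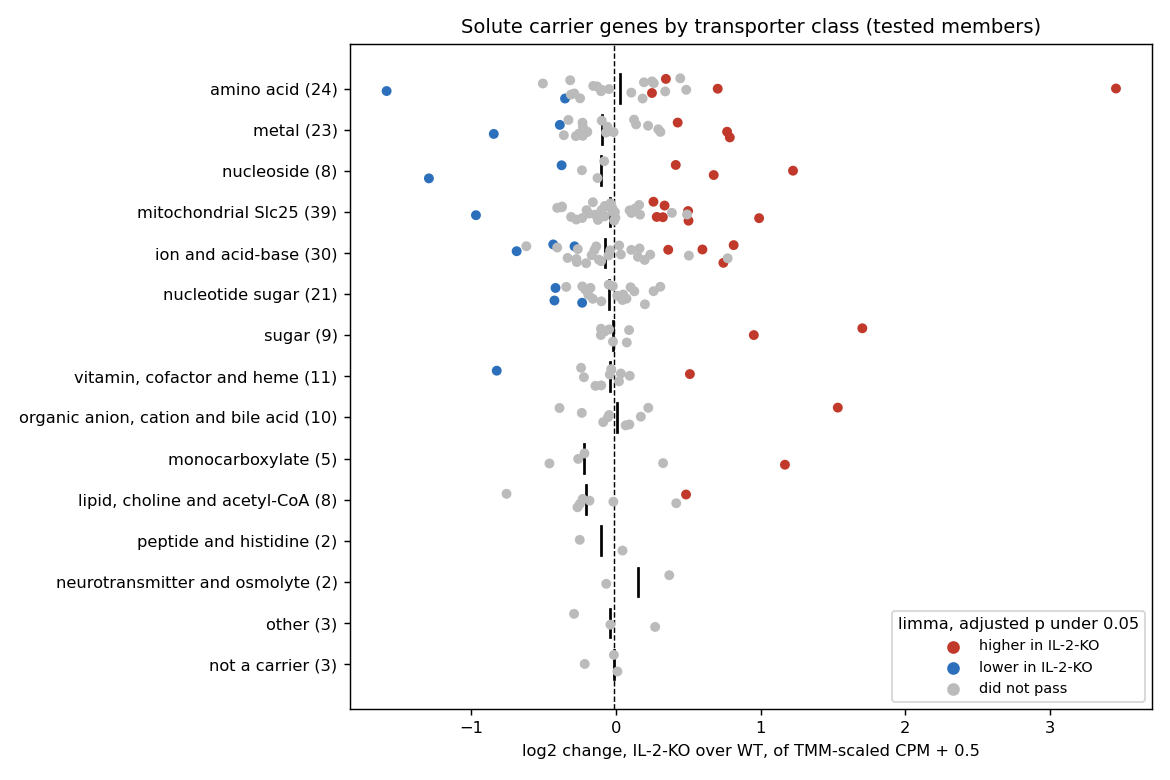
Log2 change (IL-2-KO over WT, TMM-scaled CPM plus 0.5) of the 198 tested genes by transporter class, with the number tested in parentheses; each point is a gene, black bars are class medians and the dashed line is the median of all genes (-0.01). Most points lie near 0, and the 41 coloured points that passed lie on both sides, with Slc7a10 farthest right and Slc16a10 farthest left.

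Most of the changes were small. Of the 41 genes, 34 changed by less than 2-fold. Those at 2-fold or more included Slc7a10, Slc2a6, Slc22a15 and Slc43a3 among the higher and Slc16a10 and Slc17a9 among the lower. For 118 of the 198 tested genes the whole 95% interval of the difference lay within 1.5-fold. The summed level of all 201 genes was 10095 to 10314 CPM in IL-2-KO libraries and 10843 to 10887 CPM in WT libraries, which is 1.019% of the table's total in IL-2-KO cells and 1.09% in WT cells. The groups did not overlap. The largest contributions to the lower sum came from Slc12a7 (271 CPM in IL-2-KO and 435 CPM in WT cells, on average) and Slc17a9 (74.8 and 181 CPM). Without those genes the sum was 9712 to 10011 CPM in IL-2-KO and 10232 to 10268 CPM in WT libraries.

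**Figure D2:**
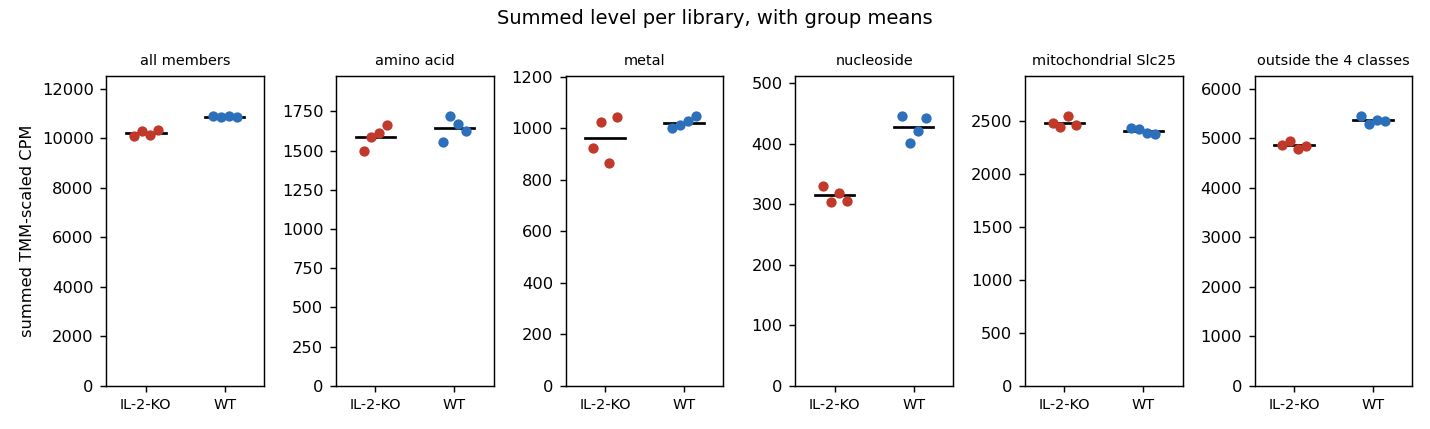
Summed TMM-scaled CPM of all 201 genes, of the 4 named classes and of the remaining 106 genes in each library (points), with group means (bars) and axes from 0. The IL-2-KO points lie below the WT points for all members, nucleoside and the remaining genes, above them for the mitochondrial Slc25 class, and overlap with them for the amino acid and metal classes.

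The IL-2 receptor signals through STAT5, which binds a motif of the letters TTCNNNGAA, so the promoters were read for it. The RefSeq promoter table (GRCm38.p6, 250 bases before the first start that it lists for each gene) had an entry for 155 of the 201 genes. On either strand, 11 of them (7.1%) held the motif, beside 7.2% of 27025 promoters of all genes. Among the 41 genes that passed, 32 had an entry and 4 held it. The same stretch was read for a metal response element, TGCACNC or TGCGCNC, found in 45 of 155 (29%) beside 21.3% of all promoters and in 8 of the 32, and for an amino acid response element, TGATGCAA, found in 2 of 155 (1.3%) beside 0.8% and in 0 of the 32. The 4 promoters with the STAT-type motif are shown first, since their genes moved in both directions, and then that of Slc30a1, a known target of the metal-sensing factor MTF-1. Each is written from 5′ to 3′ on the gene's strand, with the matched letters in capitals (for Slc30a1 the match is on the opposite strand). They lie at chr3:101924454-101924703 (minus strand), chr5:147894816-147895065 (minus strand), chr13:112660516-112660765 (plus strand), chr2:122426185-122426434 (plus strand) and chr1:191906531-191906780 (plus strand). The listed start need not be where the annotated gene begins. The Slc38a9 stretch lies inside the gene, which begins at chr13:112656189. The end of the Slc30a1 stretch, with its match, lies past the beginning of that gene at chr1:191906697. A match describes the letters and does not show a site in use.
Slc22a15: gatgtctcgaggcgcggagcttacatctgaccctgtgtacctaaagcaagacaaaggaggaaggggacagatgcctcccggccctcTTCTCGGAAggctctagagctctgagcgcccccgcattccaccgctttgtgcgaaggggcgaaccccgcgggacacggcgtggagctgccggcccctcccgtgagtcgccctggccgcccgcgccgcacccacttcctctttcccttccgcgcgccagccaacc
Slc46a3: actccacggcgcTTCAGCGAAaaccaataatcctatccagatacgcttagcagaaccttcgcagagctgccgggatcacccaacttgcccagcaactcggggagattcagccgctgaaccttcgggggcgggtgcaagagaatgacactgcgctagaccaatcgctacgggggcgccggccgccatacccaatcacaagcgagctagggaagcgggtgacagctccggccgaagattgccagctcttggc
Slc38a9: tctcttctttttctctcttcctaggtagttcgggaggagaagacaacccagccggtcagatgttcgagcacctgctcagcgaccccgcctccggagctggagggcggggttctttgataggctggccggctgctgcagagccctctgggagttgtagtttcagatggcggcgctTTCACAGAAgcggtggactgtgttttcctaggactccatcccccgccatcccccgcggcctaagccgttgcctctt
Slc28a2: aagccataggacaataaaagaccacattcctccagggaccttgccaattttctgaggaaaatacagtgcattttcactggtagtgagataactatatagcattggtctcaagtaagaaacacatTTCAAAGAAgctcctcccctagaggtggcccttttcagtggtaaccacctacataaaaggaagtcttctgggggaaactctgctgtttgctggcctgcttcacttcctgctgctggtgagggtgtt
Slc30a1: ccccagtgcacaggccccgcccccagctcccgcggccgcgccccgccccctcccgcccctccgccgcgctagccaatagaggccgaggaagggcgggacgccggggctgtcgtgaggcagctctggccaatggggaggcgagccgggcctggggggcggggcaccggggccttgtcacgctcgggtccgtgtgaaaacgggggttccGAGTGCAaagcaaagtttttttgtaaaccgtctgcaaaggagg

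Among the amino acid carriers, the 2 clearest changes ran in opposite directions: Slc16a10 fell to 0.334 of its WT level and Slc7a10, near 0 in WT cells, was found in every IL-2-KO library. The leucine carriers Slc7a5 and Slc43a1 and the glutamine carrier Slc38a1 rose by 1.63-fold or less, and Slc38a9 fell. In all, 4 of 24 tested members were higher and 2 lower (25%, beside 19.2% of all genes), and the class median was a log2 change of 0.03. The summed class level overlapped, with 1499 to 1661 CPM in IL-2-KO and 1558 to 1719 CPM in WT libraries.

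Slc16a10, a carrier of aromatic amino acids and thyroid hormone at chr10:40033532-40142270, had 8.65, 10.6, 10.9 and 7.26 CPM in IL-2-KO libraries, against 30.7, 24.7, 30.3 and 29.4 CPM in WT libraries. All 4 IL-2-KO libraries lay below all 4 WT libraries. The log2 change was -1.58 (95% interval -1.90 to -1.26, limma adjusted p = 0.000103). Slc7a10, which exchanges small neutral amino acids such as serine, had 8.51, 6.33, 8.07 and 3.35 CPM in IL-2-KO libraries, against 0.0599, 0.506, 0 and 0 CPM in WT libraries. It was listed at 0 in 2 WT libraries and every IL-2-KO library was above every WT library. Slc7a10 met the filter for testing, 1 CPM in at least 4 libraries, only through the IL-2-KO libraries. Its presence in all of them and the lack of overlap were thus required for it to be tested. The log2 change was 3.45 (95% interval 2.73 to 4.18, limma adjusted p = 0.000121), and its size depends on the number added before taking logs: it was 5.16 with 0.1 added and 1.96 with 2 added.

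Slc38a9, the lysosomal arginine transporter that reports amino acid supply to mTORC1 (promoter shown above), had 77.1, 84.9, 85.7 and 79.5 CPM in IL-2-KO libraries, against 104, 104, 104 and 105 CPM in WT libraries. The WT libraries lay close together and the IL-2-KO libraries all lay below them. Its log2 change was -0.35 (95% interval -0.49 to -0.21, limma adjusted p = 0.00397). Slc7a5, known as LAT1, had 64.1, 72.6, 67.2 and 75.8 CPM in IL-2-KO libraries, against 62.1, 55.7, 50.5 and 51.6 CPM in WT libraries, with no overlap and a log2 change of 0.35 (95% interval 0.15 to 0.54, limma adjusted p = 0.0234). Its partner Slc3a2 had 118, 99.2, 173 and 133 CPM in IL-2-KO libraries, against 117, 176, 141 and 123 CPM in WT libraries. Those values overlapped, with the highest library of each group being the one with the most Lyz2, and Slc3a2 did not pass (log2 change -0.10, 95% interval -0.49 to 0.28, limma adjusted p = 0.724).

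Slc43a1, a carrier of leucine and its relatives, had 5.23, 5.42, 4.57 and 7.21 CPM in IL-2-KO libraries, against 3.35, 2.53, 3.80 and 3.26 CPM in WT libraries. All IL-2-KO values were above all WT values, with a log2 change of 0.70 (95% interval 0.30 to 1.11, limma adjusted p = 0.0224). Slc38a1, a sodium-coupled glutamine carrier, had 239.6, 282, 249 and 282 CPM in IL-2-KO libraries, against 217, 214, 219.5 and 231 CPM in WT libraries, again without overlap but with a small log2 change of 0.25 (95% interval 0.08 to 0.41, limma adjusted p = 0.0405). Slc1a5, the exchanger ASCT2 that brings in glutamine, had 167, 164, 162 and 161 CPM in IL-2-KO libraries, against 151, 152, 148 and 157 CPM in WT libraries. The groups did not overlap, but the log2 change of 0.11 (95% interval -0.02 to 0.23, limma adjusted p = 0.218) did not pass.

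The remaining carriers of the panel did not pass. The cationic amino acid carrier Slc7a1 had a log2 change of 0.19 (95% interval -0.10 to 0.49, limma adjusted p = 0.348). Slc7a6, a partner of Slc3a2 that exchanges cationic for neutral amino acids, had -0.13 (95% interval -0.31 to 0.05, limma adjusted p = 0.299). For the glutamine carrier Slc38a2 it was -0.31 (95% interval -0.66 to 0.03, limma adjusted p = 0.192), with 219, 211, 317 and 274 CPM in IL-2-KO libraries, against 251, 388, 334 and 296 CPM in WT libraries, so the groups overlapped widely. The lysosomal proton-coupled carrier Slc36a1 had -0.31 (95% interval -0.59 to -0.03, limma adjusted p = 0.113). The annotated spans of Slc7a6 and its neighbour Slc7a6os do not overlap: Slc7a6 ends at chr8:106198714 and Slc7a6os begins at chr8:106200438. Whether reads were shared between them was not checked, and the strand setting of the counting is not given. Slc16a10, Slc7a10 and Slc38a9 passed whichever single library was left out. Without the libraries of under 2 M cells, Slc38a9 did not pass (limma adjusted p = 0.29), nor did Slc43a1 or Slc38a1. Slc7a5 did not pass without IL-2-KO replicate 2 or WT replicate 3 or 4 (limma adjusted p up to 0.0826), nor after the correction for GC content and length (log2 change 0.31, limma adjusted p = 0.0529) or without the libraries of under 2 M cells (0.21, limma adjusted p = 0.632). Slc43a1 did not pass without IL-2-KO replicate 2 or WT replicate 1 or 4 (up to 0.0594), and Slc38a1 without IL-2-KO replicate 2 or 4 or any one WT library (up to 0.107).

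Of 28 tested genes of the mTORC1 pathway and of amino acid sensing, 2 were higher, 3 were lower and 23 did not pass (17.9%, beside 19.2% of all genes, so near the background). Tfe3, a lysosomal stress and nutrient factor, had 77.7, 69.5, 80.1 and 63.1 CPM in IL-2-KO libraries, against 34.2, 47.7, 36.2 and 33.8 CPM in WT libraries. Sesn1, a leucine-binding brake on mTORC1, had 103, 106, 87.8 and 107 CPM in IL-2-KO libraries, against 143, 183, 178 and 171 CPM in WT libraries. Neither overlapped between the groups, and the log2 changes were 0.93 (95% interval 0.66 to 1.21, limma adjusted p = 0.000663) for Tfe3 and -0.74 (95% interval -0.95 to -0.52, limma adjusted p = 0.000608) for Sesn1. Sesn2, a sestrin of the same kind, was higher, with 6.25, 8.74, 8.49 and 8.61 CPM in IL-2-KO libraries, against 2.83, 5.73, 4.66 and 4.23 CPM in WT libraries and a log2 change of 0.83 (95% interval 0.38 to 1.29, limma adjusted p = 0.0186), so the 2 called sestrins went opposite ways. Ddit4, a stress-induced mTORC1 inhibitor, was lower (log2 change -0.94, 95% interval -1.35 to -0.53, limma adjusted p = 0.00586).

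**Figure D3:**
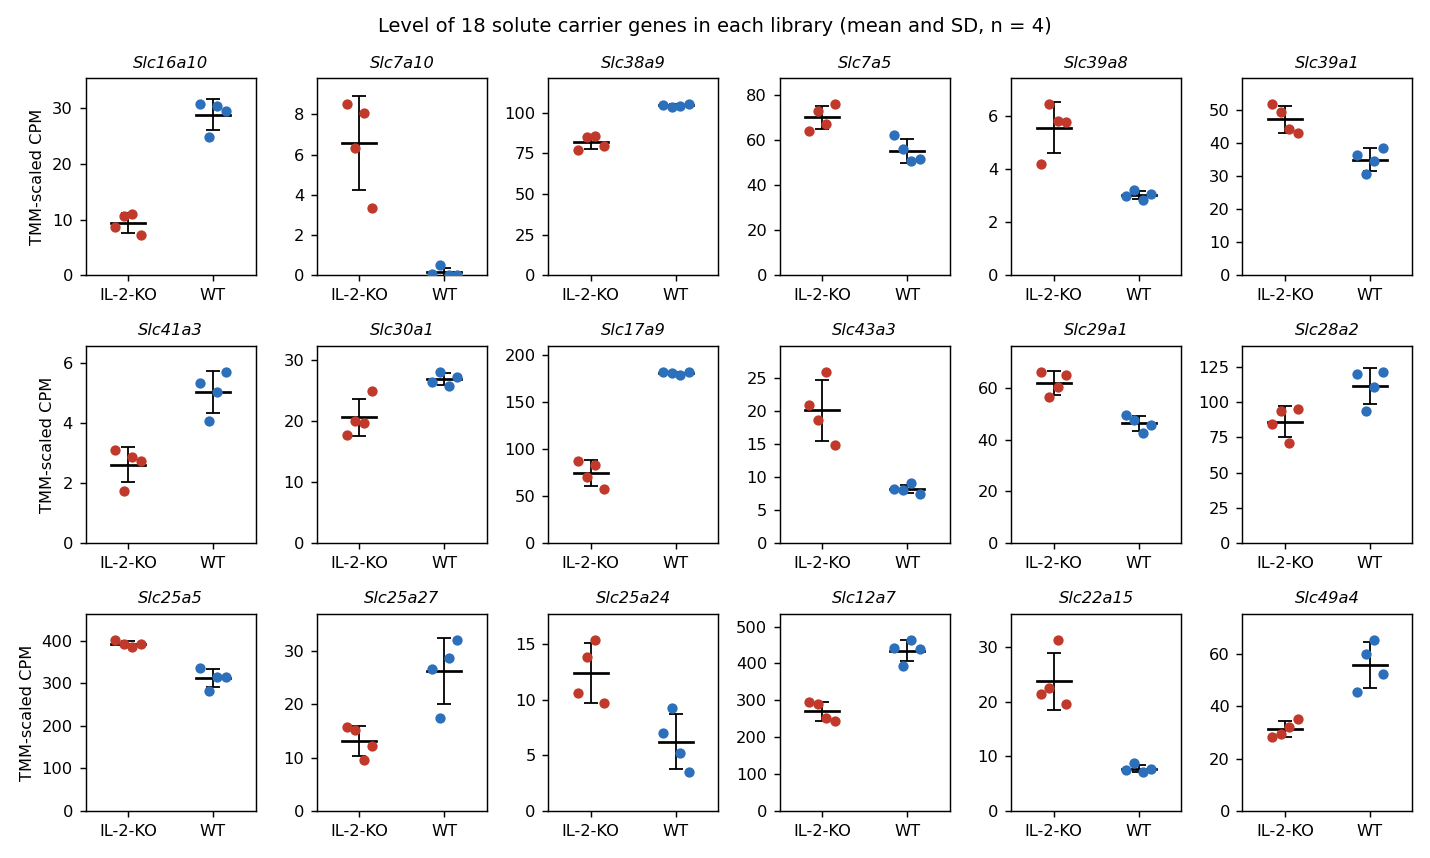
TMM-scaled CPM of 18 solute carrier genes in the 4 IL-2-KO libraries (red, left) and the 4 WT libraries (blue, right) of each panel; bars are the mean and SD, and every axis starts at 0. The groups do not overlap except for Slc28a2, and the WT points of Slc38a9 and Slc17a9 lie almost on top of each other.

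Among the metal carriers, 3 zinc importers of the Slc39 family rose and a zinc exporter and a magnesium carrier fell. In all, 3 of 23 tested members were higher and 2 lower (21.7%, beside 19.2% of all genes), with a class median of -0.10. Every called Slc39 member was higher (3 of 12 tested), and the 1 called Slc30 member of 6 tested was lower. The other 9 and 5 members of these families did not pass. The summed class level overlapped, at 864 to 1041 CPM in IL-2-KO and 1000 to 1046 CPM in WT libraries.

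Slc39a8, which imports zinc and manganese, had 4.19, 6.46, 5.84 and 5.80 CPM in IL-2-KO libraries, against 3.004, 3.20, 2.83 and 3.07 CPM in WT libraries. Each IL-2-KO library was above each WT library, by a log2 change of 0.77 (95% interval 0.41 to 1.13, limma adjusted p = 0.00886). Slc39a1, an importer of the cell surface, had 51.8, 49.5, 44.4 and 43.1 CPM in IL-2-KO libraries, against 36.4, 30.6, 34.4 and 38.6 CPM in WT libraries. Again the groups were apart, and the log2 change was 0.43 (95% interval 0.21 to 0.65, limma adjusted p = 0.0140). Slc39a4, best known as the zinc importer of the gut, had 7.37, 7.72, 8.98 and 6.26 CPM in IL-2-KO libraries, against 3.47, 4.80, 3.17 and 5.55 CPM in WT libraries. The nearest libraries of the groups were less than 1 CPM apart, and the log2 change was 0.79 (95% interval 0.36 to 1.22, limma adjusted p = 0.0184).

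Slc41a3, a magnesium carrier, had 3.08, 1.75, 2.85 and 2.74 CPM in IL-2-KO libraries, against 5.33, 4.05, 5.01 and 5.69 CPM in WT libraries. Its IL-2-KO libraries were all below its WT libraries, with a log2 change of -0.84 (95% interval -1.27 to -0.42, limma adjusted p = 0.0128). Slc30a1, the zinc exporter of the plasma membrane whose promoter is shown above, had 17.7, 20.1, 19.7 and 24.9 CPM in IL-2-KO libraries, against 26.5, 28.1, 25.7 and 27.3 CPM in WT libraries. IL-2-KO replicate 4 came within 1 CPM of the lowest WT library, and the log2 change was -0.39 (95% interval -0.64 to -0.14, limma adjusted p = 0.0382). The zinc carriers Slc39a10, with a log2 change of -0.33 (95% interval -0.67 to 0.01, limma adjusted p = 0.164), and Slc30a5, with -0.10 (95% interval -0.26 to 0.06, limma adjusted p = 0.380), did not pass, and neither did the iron carrier Slc11a2, with -0.25 (95% interval -0.55 to 0.04, limma adjusted p = 0.215). The iron exporter Slc40a1 was not analysed here.

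Slc39a8, Slc39a1 and Slc41a3 passed whichever single library was left out. Slc39a4 did not pass without WT replicate 1 or 3 (limma adjusted p up to 0.0623), nor Slc30a1 without any one library other than IL-2-KO replicate 4 (up to 0.104). Without the 4 libraries of under 2 M cells, limma called 0 of the 23 metal carriers, beside 3.33% of all genes. Of the 23, 5 then had an unadjusted p under 0.05. After the correction for GC content and length limma called 3 higher and 6 lower, where 25.8% of all genes were called. Of 18 genes that store or handle metals, 1 passed (5.56%, beside 19.2% of all genes): Aco1, whose protein also serves as an iron sensor, with 39.4, 42.4, 37.8 and 43.9 CPM in IL-2-KO libraries, against 32.4, 33.7, 33.02 and 34.97 CPM in WT libraries and a log2 change of 0.28 (95% interval 0.10 to 0.46, limma adjusted p = 0.0352). The ferritin gene Fth1 had 438, 351, 558 and 329.8 CPM in IL-2-KO libraries, against 345, 413, 345 and 345 CPM in WT libraries, with the highest value of each group in the library with the most Lyz2.

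Of the 8 carriers of nucleosides, nucleobases and nucleotides, 3 were higher and 2 lower (62.5%, beside 19.2% of all genes). Whether that share differs from the background was not tested. The plasma membrane carriers Slc43a3 and Slc29a1 rose, and so did Slc29a4 at a very low level, while the vesicular nucleotide carrier Slc17a9 and the sodium-coupled nucleoside carrier Slc28a2 fell. The summed class level was 304 to 331 CPM in IL-2-KO libraries and 402 to 446 CPM in WT libraries, without overlap. That gap rested on Slc17a9: the other 7 genes summed to 234 to 247 CPM in IL-2-KO and 220.4 to 264 CPM in WT libraries.

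Slc17a9, which loads ATP into secretory vesicles and lysosomes, lies at chr2:180724576-180742280 and had 87.9, 70.1, 83.1 and 57.97 CPM in IL-2-KO libraries, against 182, 182, 179 and 182 CPM in WT libraries. The WT libraries were within a few CPM of each other and all 4 IL-2-KO libraries were far below them. The log2 change was -1.29 (95% interval -1.55 to -1.03, limma adjusted p = 0.000102), the smallest adjusted p among the 198 genes. Slc43a3, a carrier of purine nucleobases, had 20.9, 18.6, 25.9 and 14.9 CPM in IL-2-KO libraries, against 8.20, 8.01, 9.01 and 7.42 CPM in WT libraries. Every IL-2-KO library was above every WT library, by a log2 change of 1.22 (95% interval 0.86 to 1.58, limma adjusted p = 0.000656). Its highest value was in IL-2-KO replicate 3, without which the log2 change was 1.10.

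Slc29a1, the equilibrative nucleoside carrier ENT1, had 66.3, 56.5, 60.4 and 65.01 CPM in IL-2-KO libraries, against 49.6, 47.7, 42.6 and 45.8 CPM in WT libraries. The groups did not overlap, and the log2 change was 0.41 (95% interval 0.23 to 0.60, limma adjusted p = 0.00665). Slc29a4, a carrier of monoamines and adenosine, had 1.34, 1.17, 1.45 and 1.16 CPM in IL-2-KO libraries, against 0.479, 0.885, 0.518 and 0.603 CPM in WT libraries. All WT values were under 1 CPM and all IL-2-KO values above it, and the log2 change was 0.68 (95% interval 0.22 to 1.13, limma adjusted p = 0.0426). Like Slc7a10, Slc29a4 met the filter for testing only through the IL-2-KO libraries. Its split at 1 CPM was thus required for it to be tested and is not separate support for the change. Slc28a2, a concentrating carrier of purine nucleosides and uridine (promoter shown above), had 84.6, 93.4, 70.9 and 95.2 CPM in IL-2-KO libraries, against 120.1, 93.9, 111 and 121 CPM in WT libraries. WT replicate 2 lay inside the range of the IL-2-KO libraries, and the log2 change was -0.37 (95% interval -0.63 to -0.12, limma adjusted p = 0.0443). Its near copy Slc28a2b, next to it on chromosome 2, had a log2 change of -0.23 (95% interval -0.46 to -0.01, limma adjusted p = 0.136), and how reads were split between these genes is uncertain. The lysosomal carrier Slc29a3 did not pass, with -0.13 (95% interval -0.48 to 0.23, limma adjusted p = 0.624).

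Slc17a9, Slc43a3 and Slc29a1 passed whichever single library was left out. Without the libraries of under 2 M cells, Slc29a1 did not pass (limma adjusted p = 0.424), nor did Slc29a4 or Slc28a2. Slc29a4 did not pass without any one library other than WT replicate 2 (limma adjusted p up to 0.118), and Slc28a2 did not pass without any one of IL-2-KO replicates 1 to 3 or WT replicates 1, 3 and 4 (up to 0.128). Of 14 enzymes that salvage or break down nucleosides, nucleobases or nucleotides, 6 were higher, 1 was lower and 7 did not pass (50%, beside 19.2% of all genes). Tk1, the thymidine kinase of dividing cells, had 41.2, 40.2, 58.7 and 34.1 CPM in IL-2-KO libraries, against 15.5, 13.1, 16.03 and 15.1 CPM in WT libraries. No IL-2-KO library came near the WT range, with a log2 change of 1.49 (95% interval 1.14 to 1.83, limma adjusted p = 0.000187). The adenosine kinase Adk (log2 change 0.37, 95% interval 0.20 to 0.55, limma adjusted p = 0.00807), Pnp, which splits purine nucleosides (0.68, 95% interval 0.36 to 1.00, limma adjusted p = 0.00914), and the deoxynucleotide hydrolase Samhd1 (0.45, 95% interval 0.25 to 0.65, limma adjusted p = 0.00637) were higher as well, together with Hprt and Uck2. The mitochondrial thymidine kinase Tk2 was lower (-0.34, 95% interval -0.51 to -0.18, limma adjusted p = 0.00996).

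Among the mitochondrial Slc25 carriers, 7 of 39 tested were higher and 1 lower (20.5%, beside 19.2% of all genes). The higher genes included both measured ADP/ATP carriers, Slc25a5 and Slc25a4, and the carriers of citrate, oxoglutarate, aspartate and glutamate, ATP-Mg with phosphate, and glutathione. Slc25a27, known as UCP4, fell. The class median was a log2 change of -0.04, so most of the family did not follow the called genes. The direction of the calls moved with the scaling: 4 were higher and 2 lower after quantile normalization, and 4 higher and 6 lower after the correction for GC content and length.

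Slc25a5, at chrX:36795597-36798808, had 402, 391.7, 386 and 393 CPM in IL-2-KO libraries, against 335, 283, 314 and 315 CPM in WT libraries. The groups were clear of each other, with a log2 change of 0.34 (95% interval 0.18 to 0.49, limma adjusted p = 0.00790). Slc25a4, on chromosome 8, had 231, 193, 242 and 183 CPM in IL-2-KO libraries, against 173, 177, 159 and 164 CPM in WT libraries. Its lowest IL-2-KO library was just above its highest WT library, with a log2 change of 0.33 (95% interval 0.11 to 0.54, limma adjusted p = 0.0405). The coding sequences of these 2 genes are close copies, and processed copies of Slc25a5 exist elsewhere in the genome, so the split of reads between them is uncertain. The summed level of the whole class was 2443 to 2548 CPM in IL-2-KO and 2377 to 2438 CPM in WT libraries. Without Slc25a4 and Slc25a5 it was 1848 to 1920.1 CPM in IL-2-KO and 1898 to 1968 CPM in WT libraries, so the higher sum rested on the ADP/ATP carriers.

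Slc25a13, the aspartate-glutamate carrier citrin, had 14.5, 17.9, 18.4 and 15.995 CPM in IL-2-KO libraries, against 12.4, 13.5, 10.97 and 9.97 CPM in WT libraries. All IL-2-KO values exceeded all WT values, with a log2 change of 0.50 (95% interval 0.21 to 0.79, limma adjusted p = 0.0244). Slc25a24, the calcium-regulated ATP-Mg/phosphate carrier, had 10.7, 13.9, 15.4 and 9.69 CPM in IL-2-KO libraries, against 7.01, 9.23, 5.18 and 3.53 CPM in WT libraries. The closest libraries were IL-2-KO replicate 4 and WT replicate 2, and the log2 change was 0.99 (95% interval 0.41 to 1.57, limma adjusted p = 0.0260). Slc25a11, the oxoglutarate carrier of the malate-aspartate shuttle, had 96.9, 87.1, 87.4 and 86.9 CPM in IL-2-KO libraries, against 80.5, 76.9, 68.6 and 73.01 CPM in WT libraries. There 3 IL-2-KO libraries agreed closely and replicate 1 was higher, with a log2 change of 0.26 (95% interval 0.09 to 0.43, limma adjusted p = 0.0362).

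Slc25a1, the citrate carrier, ranged from 17.6 to 26.8 CPM in IL-2-KO and from 12.1 to 16.9 CPM in WT libraries, and Slc25a39, which brings glutathione into mitochondria, from 47.4 to 58.0 CPM and from 39.4 to 44.5 CPM. Both were highest in IL-2-KO replicate 3, and their log2 changes were 0.50 (95% interval 0.16 to 0.85, limma adjusted p = 0.0466) and 0.28 (95% interval 0.09 to 0.48, limma adjusted p = 0.0464). Slc25a27 had 15.7, 15.1, 9.46 and 12.1 CPM in IL-2-KO libraries, against 26.6, 17.4, 28.7 and 32.1 CPM in WT libraries. WT replicate 2 was its lowest WT library and still above every IL-2-KO library, with a log2 change of -0.97 (95% interval -1.43 to -0.50, limma adjusted p = 0.00996).

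The phosphate carrier Slc25a3 did not pass (log2 change -0.04, 95% interval -0.26 to 0.17, limma adjusted p = 0.796), nor did the iron importer mitoferrin-1, Slc25a37 (-0.19, 95% interval -0.38 to 0.01, limma adjusted p = 0.165). Among the 8 called genes, only Slc25a5 and Slc25a27 passed whichever single library was left out. After the correction for GC content and length, Slc25a5 did not pass (log2 change 0.19, limma adjusted p = 0.174), nor did Slc25a11 (0.16, limma adjusted p = 0.172) or Slc25a39 (0.20, limma adjusted p = 0.147). Each of the other 6 was lost without WT replicate 3 or WT replicate 4, and without IL-2-KO replicate 3, and some also without IL-2-KO replicate 1, 2 or 4 or WT replicate 1 or 2 (limma adjusted p up to 0.143, for Slc25a39). Without the libraries of under 2 M cells, limma called 0 of the 39, beside 3.33% of all genes, with 1 at an unadjusted p under 0.05. Of 18 other mitochondrial carriers and channels, 3 were higher and 1 lower (22.2%, beside 19.2% of all genes, so near the background). Among them, the serine carrier Sfxn1 (log2 change 0.36, 95% interval 0.18 to 0.55, limma adjusted p = 0.0125) and the outer membrane channel Vdac1 (0.24, 95% interval 0.08 to 0.40, limma adjusted p = 0.0447) were higher, and Sfxn3 was lower (-0.36, 95% interval -0.54 to -0.18, limma adjusted p = 0.0110).

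**Figure D4:**
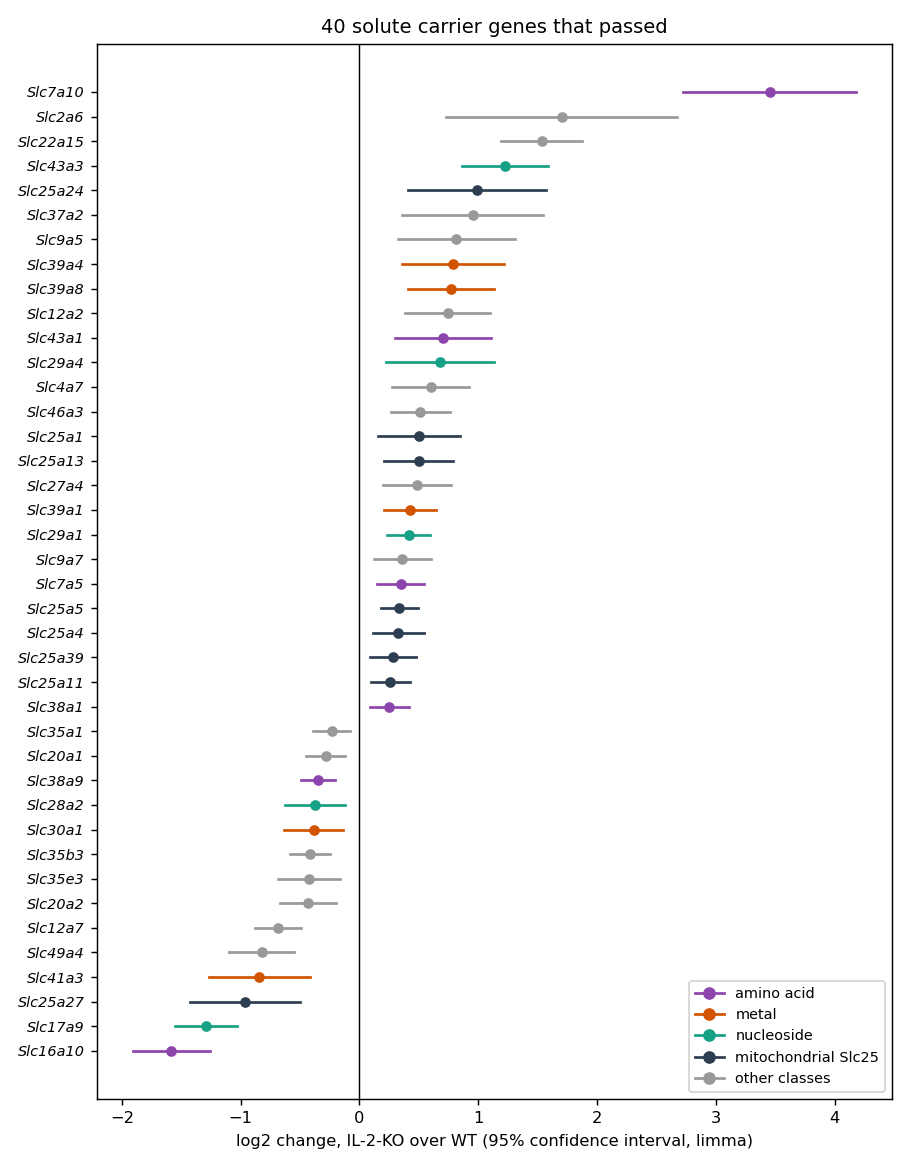
Log2 change (IL-2-KO over WT) with its 95% confidence interval from limma for 40 solute carrier genes that passed, ordered by size and coloured by class. Intervals are widest for Slc2a6 and Slc7a10, the called genes with the lowest WT levels, and the Slc25 genes (dark) cluster at small positive changes apart from Slc25a24 and Slc25a27.

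Outside the 4 named classes, 10 of 104 tested genes were higher and 7 lower (16.3%, beside 19.2% of all genes). Of 30 ion and acid-base carriers, 4 were higher, 3 were lower and 23 did not pass (23.3%). The 3 called nucleotide sugar carriers, of 21 tested, were all lower, and the organic ion carrier Slc22a15 rose with the smallest adjusted p of these 17 genes. Slc12a7, the potassium-chloride exporter KCC4, at chr13:73733052-73816754, had 295, 291, 253 and 245 CPM in IL-2-KO libraries, against 442, 394, 464 and 439 CPM in WT libraries. The IL-2-KO libraries were all below the WT libraries, and the log2 change was -0.68 (95% interval -0.88 to -0.49, limma adjusted p = 0.000511). Its functional opposite Slc12a2, the sodium-potassium-chloride importer NKCC1, had 9.38, 11.4, 14.1 and 11.7 CPM in IL-2-KO libraries, against 5.78, 8.39, 6.65 and 6.21 CPM in WT libraries. There the IL-2-KO libraries were all higher, with a log2 change of 0.74 (95% interval 0.38 to 1.10, limma adjusted p = 0.0101).

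The phosphate importers Slc20a1 and Slc20a2, the only members of their family in the table, both fell. Slc20a1 had 338, 359, 357 and 323 CPM in IL-2-KO libraries, against 434, 454, 397 and 394 CPM in WT libraries, without overlap and with a log2 change of -0.28 (95% interval -0.45 to -0.12, limma adjusted p = 0.0244). Slc20a2 had 86.8, 105, 88.5 and 100.1 CPM in IL-2-KO libraries, against 138, 104, 138 and 135 CPM in WT libraries. WT replicate 2 lay within the IL-2-KO range, and the log2 change was -0.43 (95% interval -0.67 to -0.19, limma adjusted p = 0.0191). Slc4a7, a sodium-bicarbonate importer, had 28.5, 42.9, 44.8 and 39.7 CPM in IL-2-KO libraries, against 26.3, 27.5, 25.6 and 21.8 CPM in WT libraries. IL-2-KO replicate 1 stood close to the WT libraries and the other 3 well above, with a log2 change of 0.60 (95% interval 0.28 to 0.92, limma adjusted p = 0.0169). The sodium-proton exchangers Slc9a5 (log2 change 0.81, 95% interval 0.32 to 1.31, limma adjusted p = 0.0289) and Slc9a7 of the Golgi (0.36, 95% interval 0.12 to 0.60, limma adjusted p = 0.0416) were also higher, with overlapping groups, though Slc9a7 did not pass after the correction for GC content and length (0.27, limma adjusted p = 0.067), and the endosomal Slc9a9 did not pass (-0.12, 95% interval -0.30 to 0.07, limma adjusted p = 0.370). Among 15 partners and regulators of carriers, 2 were higher and 1 lower (20%, beside 19.2% of all genes, so near the background). Stk39, the kinase SPAK that phosphorylates Slc12 carriers, was higher with overlapping groups (log2 change 0.57, 95% interval 0.22 to 0.93, limma adjusted p = 0.0317), and Nedd4l, a ubiquitin ligase of membrane carriers, was lower (-0.47, 95% interval -0.74 to -0.20, limma adjusted p = 0.0226).

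Slc22a15, whose promoter is shown above and whose human counterpart carries carnitine and other zwitterions, had 21.5, 22.6, 31.4 and 19.6 CPM in IL-2-KO libraries, against 7.54, 8.76, 7.08 and 7.72 CPM in WT libraries. The lowest IL-2-KO library was more than 2-fold above the highest WT library, with a log2 change of 1.53 (95% interval 1.19 to 1.87, limma adjusted p = 0.000151). Slc27a4, a fatty acid importer with acyl-CoA synthetase activity, was higher too (log2 change 0.49, 95% interval 0.20 to 0.77, limma adjusted p = 0.0254).

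Slc2a6, the lysosomal hexose carrier GLUT6, had 3.28, 1.81, 5.54 and 1.34 CPM in IL-2-KO libraries, against 0.180, 1.52, 0.288 and 0.301 CPM in WT libraries. The highest library of each group was IL-2-KO replicate 3 and WT replicate 2, the libraries with the most Lyz2, and the groups overlapped. Its log2 change was 1.70 (95% interval 0.73 to 2.67, limma adjusted p = 0.0225), and 1.74 (limma adjusted p = 0.00399) without both of those libraries. Slc37a2, a sugar phosphate exchanger of the endoplasmic reticulum, was higher with overlap (log2 change 0.95, 95% interval 0.36 to 1.54, limma adjusted p = 0.0319). It ranged from 6.43 to 17.7 CPM in IL-2-KO and from 4.79 to 6.57 CPM in WT libraries.

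Slc49a4, a lysosomal vitamin B6 carrier, had 28.2, 29.3, 32.2 and 35.1 CPM in IL-2-KO libraries, against 45.4, 60.2, 65.5 and 52.4 CPM in WT libraries. The WT libraries were spread and all above the IL-2-KO libraries, with a log2 change of -0.82 (95% interval -1.10 to -0.55, limma adjusted p = 0.00139). Slc46a3, a lysosomal carrier whose promoter is shown above, had 13.6, 16.4, 17.05 and 16.4 CPM in IL-2-KO libraries, against 11.2, 11.5, 10.3 and 10.8 CPM in WT libraries. All IL-2-KO libraries were above the WT libraries, with a log2 change of 0.51 (95% interval 0.26 to 0.76, limma adjusted p = 0.0102). The folate carrier Slc19a1 did not pass (-0.24, 95% interval -0.47 to -0.01, limma adjusted p = 0.131).

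Slc35b3, which brings the sulphate donor PAPS into the Golgi, had 109, 124, 126 and 122 CPM in IL-2-KO libraries, against 155, 149.5, 175 and 164 CPM in WT libraries. The groups were apart, with a log2 change of -0.42 (95% interval -0.59 to -0.25, limma adjusted p = 0.00421). Slc35e3 had 17.2, 18.5, 14.9 and 18.2 CPM in IL-2-KO libraries, against 23.7, 19.5, 23.9 and 26.1 CPM in WT libraries. Its groups did not overlap either, and the log2 change was -0.42 (95% interval -0.69 to -0.16, limma adjusted p = 0.0322). Slc35a1, which supplies CMP-sialic acid to the Golgi, had a log2 change of -0.23 (95% interval -0.39 to -0.08, limma adjusted p = 0.0420) without overlap. These were the 3 called members of 21 tested.

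Of these 17 genes, Slc22a15, Slc12a2, Slc46a3, Slc12a7, Slc49a4 and Slc35b3 passed whichever single library was left out. Without the libraries of under 2 M cells, only Slc22a15 and Slc49a4 of the 17 passed. Slc4a7 did not pass without WT replicate 4 (limma adjusted p = 0.0576). Slc20a2 was lost without WT replicate 1, 3 or 4 (up to 0.0679), Slc20a1 without IL-2-KO replicate 1 or 4 or WT replicate 1 (up to 0.0720), and Slc2a6 without IL-2-KO replicate 1 or WT replicate 1, 3 or 4 (up to 0.0718). Slc27a4, Slc9a5, Slc37a2, Slc35e3, Slc9a7 and Slc35a1 were each lost without WT replicate 3 or 4 and without 3 to 5 other libraries (up to 0.140).

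**Figure D5:**
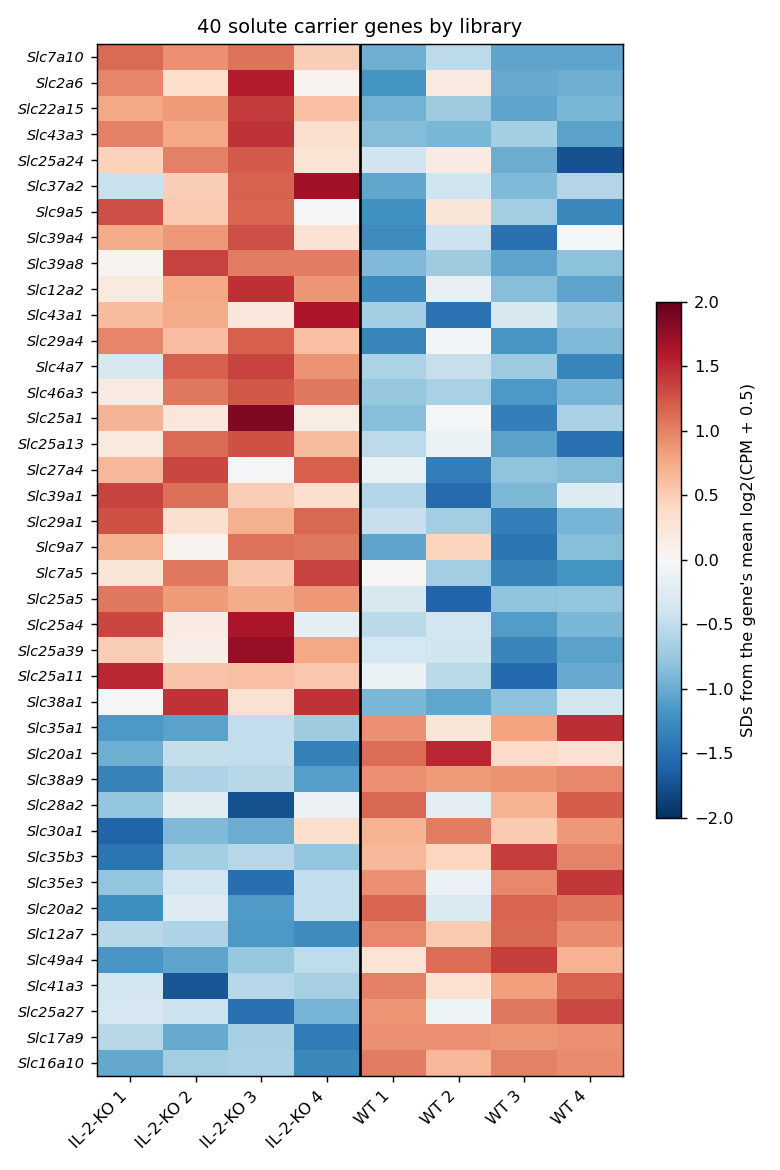
The same 40 genes (rows, ordered by log2 change) in the 4 IL-2-KO libraries (left of the line) and the 4 WT libraries (right); colour gives the distance from the gene's mean of log2(CPM + 0.5) in SDs. WT replicate 2 is paler than the other WT libraries for genes such as Slc28a2, Slc20a2 and Slc25a27, and IL-2-KO replicate 3 is darkest for Slc2a6, Slc25a1 and Slc25a39.

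Per kilobase of merged exon, Slc25a5 ranked first of the 201 genes in both genotypes, with 239 CPM per kb in IL-2-KO cells and 189 CPM per kb in WT cells. The scaffold Slc9a3r1 (107 and 108 CPM per kb) and the phosphate carrier Slc25a3 (91.6 and 94.5 CPM per kb) followed in both. Next came Slc25a4 in IL-2-KO cells (90.2 CPM per kb), whose level did not differ from that of Slc25a3 beyond the spread of the libraries, and the choline carrier Slc44a2 in WT cells (77.9 CPM per kb), close to Slc20a1 at 75.2 CPM per kb. Slc17a9 was 17th in IL-2-KO cells and 8th in WT cells, and Slc12a7 was 23rd and 14th. Slc16a10 was 167th in IL-2-KO cells and 118th in WT cells. These ranks depend on the length used, which merges all annotated exons of a gene. Before division by length, Slc25a3 averaged 508 CPM in IL-2-KO and 525 CPM in WT cells, against 393 and 312 CPM for Slc25a5. Their merged lengths were 5550 and 1646 bases, and ranks by transcript length were not made. Over all 201 genes, 30 averaged 100 CPM or more in WT cells, 117 averaged 10 to 100 CPM and 54 less.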

How the data were processed

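Per its title, the authors deposited a table of signal values for each gene in each library, read counts scaled to a fixed total after TMM normalisation. As tools, the submitters' processing notes give featureCounts, limma (3.34.9) and R (3.4.3), and as genome builds GRCm38 and mm10, with no role for any of them. The aligner and the strand setting are not given in the sources used here. Columns summed to 988292 to 1022953, so the unit was taken as a scaled signal and not as plain CPM, for which the test had been chosen. The test was kept. In each library 54.6% to 65.0% of low values were whole reads (within 0.002 read) and 100% whole hundredths, so counts were not recovered for nearly all genes and no count model was run. No molecular identifiers are mentioned, so reads are not independent molecules.

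Entrez identifiers were matched to RefSeq symbols of GRCm38.p6 (11651 matched, 72 not). A gene was tested when 4 or more of the 8 libraries reached a value of 1, with limma 3.58.1 in R 4.3.3 on log2(value + 0.5), with empirical Bayes and a mean-variance trend, all 8 libraries, no covariate and Benjamini-Hochberg adjustment. Log2 changes are on that scale and understate those of low genes. p-values measure the spread between these libraries. Levels per kb used the merged exon length of GENCODE, in place of the longest transcript first planned. GC content and length were known for 99.2% of genes. The code was tested on simulated data. The pairing of equal replicate numbers was checked.

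Alternatives were other pseudocounts (0.1, 2), no filter and a minimum of 5, quantile normalization and median scaling, a replicate block, a covariate for cell number, array weights, leaving out libraries and, chosen after seeing the data, a correction for GC content and length. Members, classes and lists were chosen with earlier results of these data known. A few genes that enter the counts are not reported here by name. Named genes were a panel of transporters, those that passed, and per class the called genes with the smallest adjusted p, whose values are given in every library. For partner and marker lists, up to 3 genes with the smallest adjusted p were to be named; Hprt, Uck2, Tk2, Vdac1, Sfxn3 and others beyond that were named after their values were seen.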

Additional observations from a re-analysis of the deposited data

Results flagged for a closer look

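In 4 of 108 groups of 4 libraries (3.70%) of called or panel genes, 1 library stood apart from the other 3 by Dixon's criterion, and chance gives about 1 group in 20. In 3 of them that library was WT replicate 2, the shallowest library, which also held more Lyz2 and Cd4 than the other WT libraries. There Slc7a10 was at 0.506 CPM, against 0 to 0.0599 CPM in the other WT libraries. Slc2a6 was at 1.52 CPM, against 0.180 to 0.301 CPM, and Slc20a2 at 104 CPM, against 135 to 138 CPM. In the other, Slc25a11 was at 96.9 CPM in IL-2-KO replicate 1, against 86.9 to 87.4 CPM in the other IL-2-KO libraries. Without WT replicate 2 the log2 changes were 3.69 for Slc7a10, 2.06 for Slc2a6 and -0.53 for Slc20a2, each larger in size than with it. The cause was not tested.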

How the results depend on the processing

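Of 41 calls, 6 held under every one of up to 20 alternatives (Slc17a9, Slc16a10, Slc7a10, Slc22a15, Slc43a3 and Slc49a4) and 17 held whichever single library was left out. Leaving out WT replicate 3 or WT replicate 4 lost 21 calls each. In those fits 10.1% of the members passed, beside 11.1% and 11.7% of all genes. Over the leave-one-out fits, 11 to 24 members were higher and 8 to 19 lower, and 3 to 6 amino acid, 3 to 6 metal, 3 to 5 nucleoside and 2 to 8 Slc25 carriers were called. Without the libraries of under 2 M cells, 3 members were higher and 3 lower (25 at an unadjusted p under 0.05), with 2 amino acid, 0 metal, 2 nucleoside and 0 Slc25 calls in limma. That fit kept only replicates 1 and 2 of each group, and 3.03% of the members passed, beside 3.33% of all genes. With the replicate block, 12 were higher and 8 lower (10.1%, beside 12.1% of all genes), with 3, 2, 3 and 3 calls in those classes. Deviations of same-numbered libraries correlated at 0.08, -0.53, -0.40 and 0.39, and 2 of 4 IL-2-KO libraries correlated best with their own number. Whether equal numbers mark a shared litter or day is not given, and so few correlations cannot decide it. Of the 41 calls, 21 were lost under the block, and whether the block is the better model for them is not known. With array weights, 41 were higher and 40 lower (40.9%, beside 37.8% of all genes), with 12 amino acid, 10 metal and 14 Slc25 calls. Quantile normalization gave 22 lower members, and the correction for GC content and length 33 lower members and 9 metal calls. In both directions together, 21.2% of the members passed after quantile normalization, beside 20.75% of all genes. After the correction it was 27.8%, beside 25.8%. A minimum of 5 left 3 metal calls. A cell number covariate left 3 nucleoside and 5 Slc25 calls. Among the genes named here, signs reversed only for Slc3a2 and Slc25a3, which did not pass. The leave-one-out log2 changes ran from -0.246 to 0.021 for Slc3a2 and from -0.105 to 0.029 for Slc25a3. For Slc3a2 the reversed values were 0.021 without IL-2-KO replicate 2 and 0.016 without WT replicate 2. The causes were not tested. Genes under 1 CPM rest on at most 18.6 counts a library.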

Other observations

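Within the IL-2-KO group, replicates 1 and 3 lay together on one side of replicates 2 and 4 for 61.1% of the 198 tested solute carrier genes (64 below and 57 above), beside 63.4% of all genes. The other ways of pairing the IL-2-KO libraries gave 21.2% and 17.7% of the solute carrier genes. Within the WT group, replicate 2 was the highest or lowest library for 72.2% of the solute carrier genes, beside 72.3% of all genes.

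Slc22a23, an organic ion carrier that was not tested because of its low level, had 5.68 CPM in IL-2-KO replicate 3 and 0.603 to 0.812 CPM in the other IL-2-KO libraries, against 0.945 to 1.52 CPM in WT libraries. IL-2-KO replicate 3 is the library with the most Lyz2. Slc22a27, a carrier of the organic anion family known from liver and kidney of rodents, ranked 12th of the 201 genes per kb of exon in IL-2-KO cells (31.9 CPM per kb) and 15th in WT cells (29.8 CPM per kb). GENCODE marks its locus as overlapping another, so reads of that locus may be included.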
